A study of Mus musculus with 77 samples.

Results

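Cytokines, chemokines and ligands of the tumour necrosis factor (TNF) family, together with their receptors, were followed at mouse bone marrow enhancers, and in expression, while multipotent cells become granulocytes. The members were taken by gene symbol: interleukins and interleukin receptors (Il and a number), CC and CXC chemokines and their receptors (Ccl, Cxcl, Ccr, Cxcr and a number), the TNF superfamily (Tnfsf, Tnfrsf) and the interferon receptors, without Il6ra, Il1r2 and Cxcr2. This gave 95 of the 10096 genes that the authors assigned to their 44002 enhancers, with 496 enhancers. By role they were 19 interleukins, 24 interleukin receptor chains, 16 chemokines, 10 chemokine receptors, 7 TNF ligands, 15 TNF receptors and 4 interferon receptor chains. Il1rn and Il18bp were counted with the interleukins, and Il22ra2, by its symbol, with the interleukin receptor chains. Il4i1, an enzyme named after interleukin 4, falls among the interleukins by its symbol. Likewise Il28ra, whose current symbol is Ifnlr1, falls among the interleukin receptor chains and not the interferon receptor chains. The symbols alone decide membership.

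Interleukins and chemokines are secreted proteins that carry signals between blood cells, and each acts through receptor chains on the surface of the cell that receives it. Most interleukin and interferon receptors signal through JAK kinases and STAT factors, TNF and interleukin-1 receptors act largely through NF-kB, and chemokine receptors couple to G proteins and steer cell migration. In the bone marrow these systems tell progenitors when to divide and mature, and mature neutrophils use the same receptors to leave the marrow and to reach inflamed tissue.

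Cells were sorted from freshly harvested bone marrow. The Cebpa knockout (KO) group, labelled CEBPA KO, was preGM, and the wild type groups were LSK cells (Lin-, Sca-1+, ckit), preGM (Lin-, Sca-1-, ckit+, CD150-, CD105-), GMP (Lin-, Sca-1-, ckit+, CD150-, FcgRII/III+) and granulocytes (Mac1+Gr-1+). LSK cells hold the multipotent progenitors, preGM come after them, and GMP, which give granulocytes and monocytes, come next. Neither the age of the mice nor the promoter that drove the deletion is given in the labels used here. The enhancer marks H3K27ac (active enhancers) and H3K4me1 (active or poised enhancers) were given for all 5 groups, binding of the myeloid factor PU.1 for all but granulocytes, and binding of CEBPA for wild type preGM. Each of the 15 ChIP-seq columns carries the name of a group of 2 libraries and each of the 6 expression columns that of a group of 3 RNA libraries. The table holds 1 value per column, so no difference between groups has a replicate check, an error or a test.

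A gene's ChIP value is the mean of the authors' signal over its enhancers, and depth is unknown. Differences are log2 ratios with a pseudocount (0.7 for H3K27ac, 2 for H3K4me1, 0.6 for PU.1), given relative to the median of all 10096 genes, and a gene is counted as higher or lower where the ratio is at least 2-fold. The ratios understate differences of genes with low signal. The subtracted median was 0.0963, 0.42, 0.011 and 0.51 for H3K27ac in preGM over LSK, GMP over preGM, granulocytes over GMP and granulocytes over LSK. In the same order it was -0.10, 0.19, 0.34 and 0.45 for H3K4me1, and it was 0.37 and -0.10 for PU.1 in the first pair of steps. In KO over wild type preGM it was 0.073 for H3K27ac, 0.13 for H3K4me1 and -0.40 for PU.1. The expression values come as a stage set (LSK, preGM, GMP, granulocytes; pseudocount 30) and a genotype pair (KO and wild type preGM; pseudocount 70). Their assay, unit and zero are not stated, no value is 0, and the 2 sets both hold a wild type preGM column. On log2 values these wild type preGM columns correlated at only r = 0.783 across genes, against 0.985 between KO and wild type in the pair (genes are not independent). The sets thus differ by more than a constant factor. In wild type preGM, Ccl9 had 5763 in the stage set and 347 in the pair, and Ccl5 had 53.4 and 405. Whether both wild type preGM columns come from the same libraries is not stated. The values are therefore read within a set only, as relative levels.

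Markers of the sorted stages were checked first. In the stage set Kit, the receptor of the progenitor gates, had an expression value of 111 in granulocytes and 841 in GMP, Mpo, a primary granule enzyme, was highest in GMP, and Mmp9, made in late neutrophils, stood at 6049 in granulocytes against 30.1 in GMP. Cebpa itself had 48.3 in KO and 208 in wild type preGM, and the PU.1 gene (Sfpi1) 196 and 302. Of 18 markers of other cell types 9 were in the table and none was listed at 0. The summed level of the 4 B, T and NK cell markers was 226 in KO and 183 in wild type preGM, and across stages it ran between 66.9 and 102. The single erythroid marker, Klf1, had 215 in KO and 204 in wild type. In the stage set it had 40.1 in LSK, 189 in preGM, 64.1 in GMP and 167 in granulocytes, and its part in the stage differences was not tested. The whole list summed to 627 in KO and 1612 in wild type preGM. The 4 monocyte markers summed to 1848 in LSK, 7565 in preGM, 11186 in GMP and 2235 in granulocytes, and their part in the stage differences was not tested.

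By medians of the per-gene values, the members had less H3K27ac and more PU.1 than all genes. Their median H3K27ac lay below that of all genes at every stage, for example 1.26 against 2.01 in granulocytes, and between 20 and 35 of the 95 lay above the all-gene median. PU.1 stood the other way: in wild type preGM the members' median was 2.98 against 2.13 for all genes, with 63 of 95 above it. The members had a median of 3 enhancers per gene against 2 over all genes, and the part of this in the PU.1 means was not tested. Of their single enhancers 17.7% were in the authors' class with PU.1 only (19.1% of all). Another 13.1% were in that with PU.1 and CEBPA (9.21%), and 54.6% in that with neither factor (59.5%). CEBPA in wild type preGM had a median of 0.678 at the members and 0.578 over all genes, with 57 above. The median expression value was 46.3 against 90.6 in granulocytes. Many of these genes, among them Il6, Il10, Il13, Il31 and Ccr3, were thus assigned enhancers in cells in which their expression value stayed under 50 at all stages.

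The most strongly marked members were receptors. By the mean of H3K27ac over the 4 wild type stages the leading interleukin receptor chains were Il15ra (7.57), which presents interleukin-15, and Il3ra (7.08), the specific chain of the interleukin-3 receptor. Tnfrsf1a (3.98) and Tnfrsf17 (3.78) led the TNF receptors, Ifnar2 (3.48) and Ifnar1 (2.00), the 2 chains of the type I interferon receptor, the interferon receptor chains, and Ccl3 (2.61) and Cxcl3 (2.41) the chemokines. Il15 (2.03) and Il18bp (1.53) led the interleukins, Tnfsf10 (1.74) and Tnfsf13b (1.10) the TNF ligands, and Cxcr4 (1.51) and Ccr1 (1.48) the chemokine receptors.

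**Figure D1:**
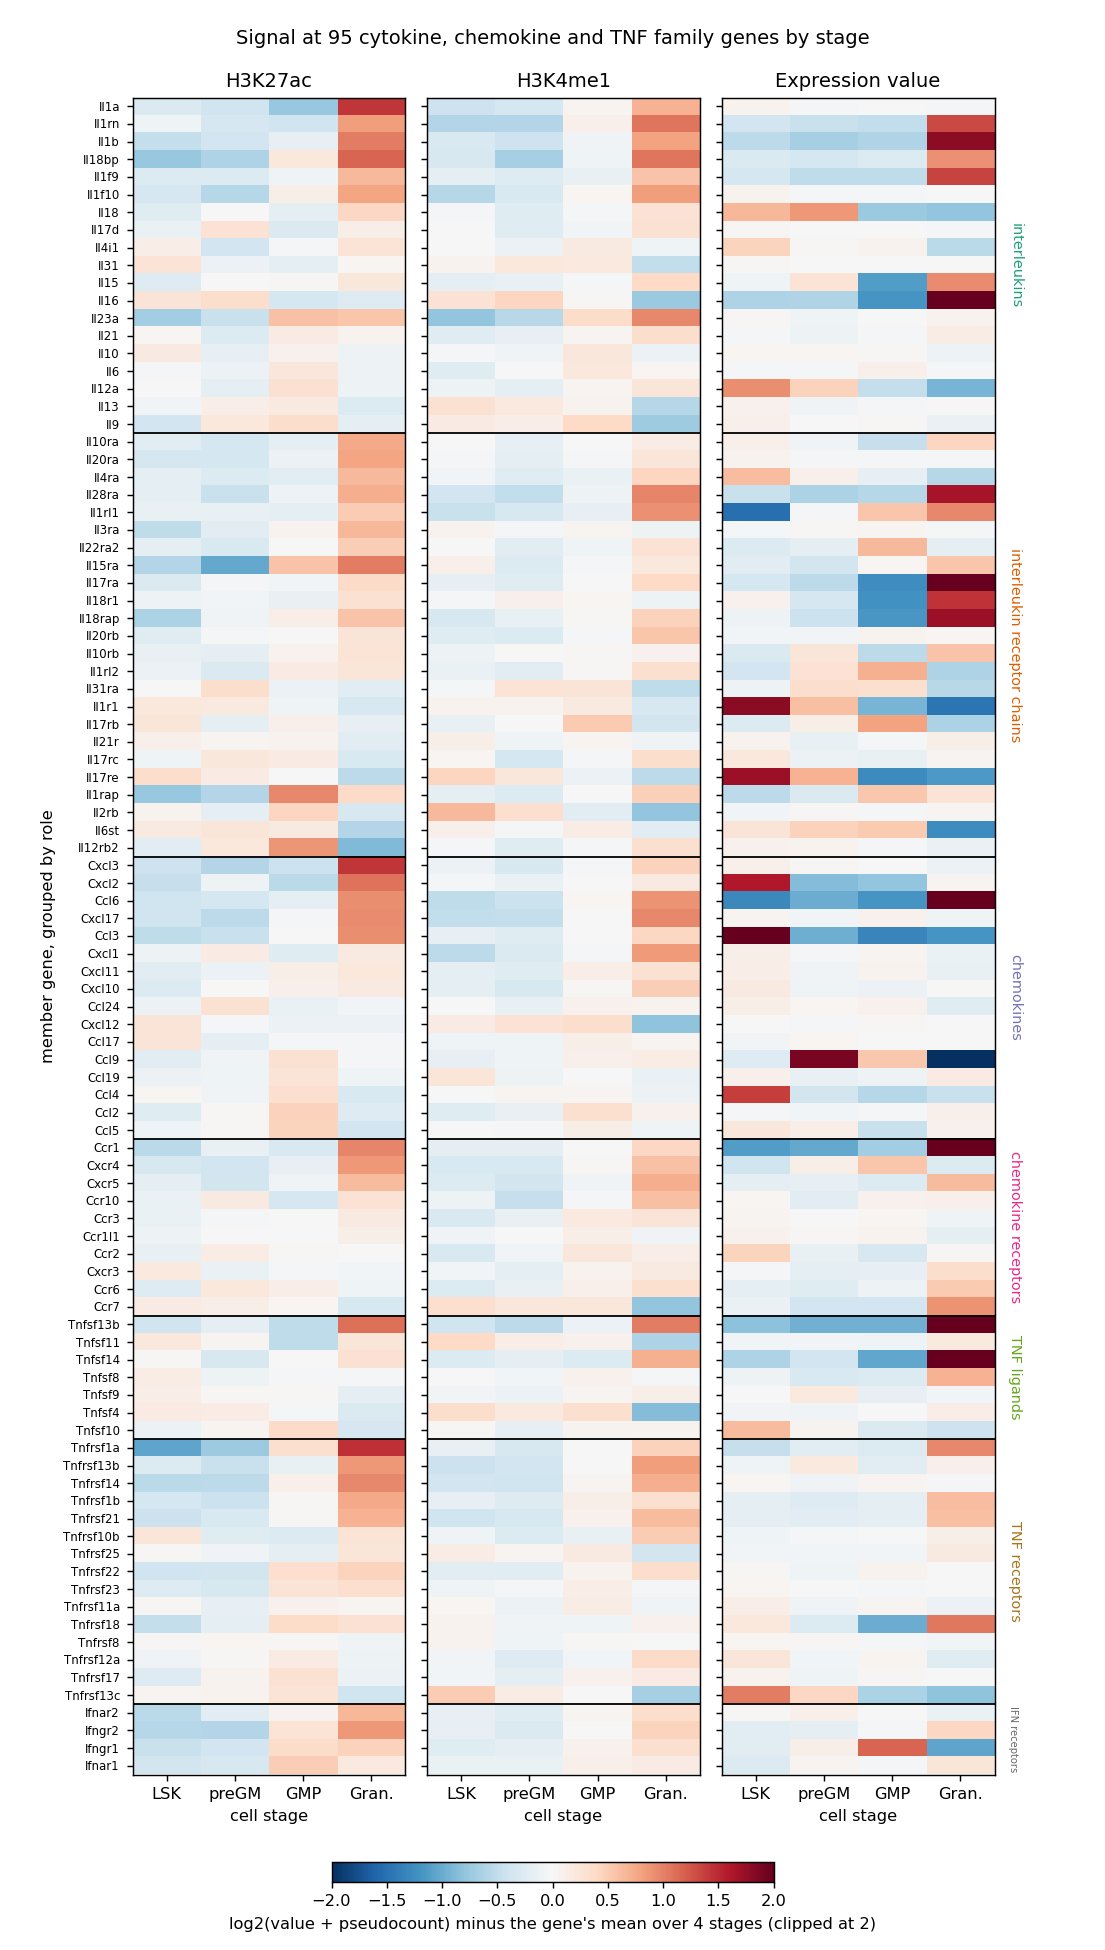
H3K27ac, H3K4me1 and expression values of the 95 member genes (rows, by role) in LSK, preGM, GMP and granulocytes (columns). Colour is log2(value + pseudocount) minus the gene's mean over the 4 stages, clipped at 2, before the all-gene median was subtracted; most strong colours of the H3K27ac panel are in the granulocyte column, with Il12rb2 and Il1rap highest in GMP.

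In the step to mature granulocytes the members passed 2-fold in H3K27ac at 12.6%, counting both directions, against 15.3% of all genes. At 11 of the 95 genes H3K27ac was at least 2-fold higher in granulocytes than in GMP, against 7.58% of all genes, and at 1 it was lower, against 7.72%. The members' median ratio was 0.11. By role the 11 were 3 interleukins (Il1a, Il1b, Il1rn), 3 chemokines (Cxcl2, Cxcl3, Ccl6), the chemokine receptors Ccr1 and Cxcr4, the TNF ligand Tnfsf13b and the TNF receptors Tnfrsf1a and Tnfrsf13b. None of the 24 interleukin receptor chains was among them, but their largest ratio, 0.94, lay just under the threshold. Their median ratio was 0.22, as was that of the 19 interleukins. A pseudocount 4 times larger left 2 members higher and 1 lower, so the count rests on signals of a few units.

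Il1a, Il1b and Il1rn, the 3 interleukins among the higher genes, rest on 2, 4 and 2 enhancers. Il1a, an alarm cytokine released by dying cells, had H3K27ac of 0.559 in LSK, 0.471 in preGM, 0.212 in GMP and 3.46 in granulocytes (log2 ratio of granulocytes over GMP 2.18). Il1b, its secreted relative, had 0.719, 0.815, 1.06 and 3.34 in the same order (1.19), and Il1rn, which blocks the shared receptor, had 0.466, 0.280, 0.244 and 1.51 (1.22). The granulocyte value was the highest for all 3, though that of Il1rn lay under the all-gene median of 2.01. Their expression values did not run alike: Il1b had 327 in granulocytes and 37.4 in GMP and Il1rn 162 and 24.5, while Il1a stayed at or under 15.6 at all stages. The 6 enhancers of Il1a and Il1b lie within chr2:129139749-129240083 (mm9, as deposited), and 4 of them were at least 2-fold higher in granulocytes than in GMP.

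Cxcl2 and Cxcl3, neutrophil-attracting chemokines, lie close together on chromosome 5. Cxcl3 had H3K27ac of 6.21 in granulocytes and 1.19 in GMP (1.86) over 2 enhancers, and the lone Cxcl2 enhancer, at chr5:91332222-91332304, had 3.45 and 0.648 (1.61). Neither passed 2-fold by expression: Cxcl2 had an expression value of 60.4 in granulocytes and 19.9 in GMP (0.94) and Cxcl3 5.48 and 8.37 (-0.030).

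Ccl6, a chemokine of mouse myeloid cells, had the largest expression ratio of the members in this step, with 1593 in granulocytes against 34.9 in GMP (4.73). Its H3K27ac was 2.66 in granulocytes and 0.869 in GMP (1.09), with all 5 enhancers above the all-enhancer median and 3 at least 2-fold higher. Ccr1, a receptor for inflammatory chemokines such as Ccl3 and Ccl5, had an expression value of 625 in granulocytes against 27.1 in GMP (3.60) and H3K27ac of 3.22 against 0.919 (1.27). All 8 of its enhancers were above the all-enhancer median, and its strongest, at chr9:123848996-123849214, had 7.05 in granulocytes and 1.80 in GMP and carried PU.1 signal of 26.5 in wild type preGM. Tnfsf13b, the B cell survival factor BAFF, had an expression value of 602 in granulocytes and 18.2 in GMP (3.80), and H3K27ac of 2.74 and 0.436 (1.59). These 3 genes had low values of both measures at all 3 progenitor stages.

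Tnfrsf1a, the main receptor of TNF, had an expression value of 635 in LSK, 750 in preGM, 732 in GMP and 1761 in granulocytes (1.32 for granulocytes over GMP). Its H3K27ac was 1.06 in LSK, 1.51 in preGM, 3.89 in GMP and 9.45 in granulocytes. All 13 of its enhancers were above the all-enhancer median in granulocytes over GMP and 5 were at least 2-fold higher. The strongest pair, at chr6:125300632-125300752 and chr6:125299722-125299937, had 30.0 and 28.7 in granulocytes and 16.5 and 15.3 in GMP, and the largest log2 ratio was 2.34, at chr6:125302053-125302152 (14.8 against 2.07). Cxcr4, the receptor that holds cells in the marrow, had the most enhancers of any member, 26, of which 9 were at least 2-fold higher in granulocytes and none lower. Its expression value was nevertheless 422 in granulocytes against 769 in GMP (log2 ratio -0.74).

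**Figure D2:**
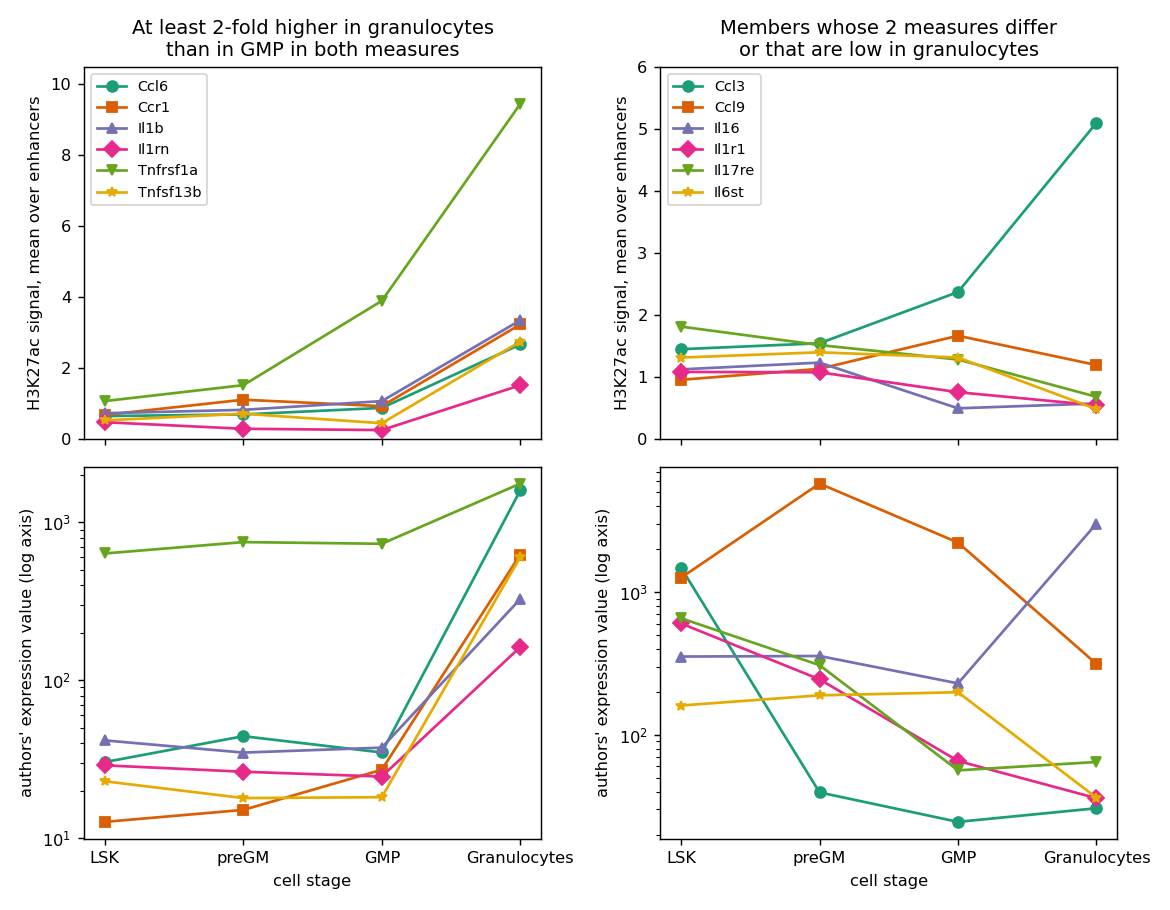
H3K27ac (top, mean signal over a gene's enhancers) and the authors' expression value (bottom, log axis) at 4 stages, 1 value per stage. Left, the 6 members at least 2-fold higher in granulocytes than in GMP in both measures; right, 6 members whose measures part or that were low in granulocytes, such as Ccl3, with H3K27ac of 5.09 in granulocytes but its highest expression value, 1482, in LSK.

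Of the 11 genes with more H3K27ac and the 19 with a higher expression value in granulocytes than in GMP, 6 were shared: Ccl6, Ccr1, Il1b, Il1rn, Tnfrsf1a and Tnfsf13b. That is 54.5% of the 11 and 31.6% of the 19, and over all genes the shared 319 were 41.7% and 24.3% of the 2 lists. Across genes the ratios of the mark and of expression in this step correlated at r = 0.36 in the 95 members and 0.46 in all 10096 genes. Those of H3K27ac and H3K4me1 correlated at 0.56 in the members and 0.15 in all genes. In the same order they gave 0.67 and 0.52 in granulocytes over LSK and 0.29 and 0.17 in GMP over preGM. The values were 0.035 and 0.0026 in preGM over LSK and 0.11 and 0.10 in KO over wild type preGM. These are descriptions over genes, which share libraries. For the 4 of these 6 with a single start site in RefSeq, the 250 bases before that site are shown because their genes were high together. The positions are on GRCm38.p6, not on the mm9 of the enhancers: chr11:83593088-83593337 on the minus strand for Ccl6, chr9:123968693-123968942 on the minus strand for Ccr1, chr2:129371140-129371389 on the minus strand for Il1b and chr6:125349473-125349722 on the plus strand for Tnfrsf1a. Sequences run 5′ to 3′ toward the gene, and capitals mark matches to the motifs given after them.
Ccl6: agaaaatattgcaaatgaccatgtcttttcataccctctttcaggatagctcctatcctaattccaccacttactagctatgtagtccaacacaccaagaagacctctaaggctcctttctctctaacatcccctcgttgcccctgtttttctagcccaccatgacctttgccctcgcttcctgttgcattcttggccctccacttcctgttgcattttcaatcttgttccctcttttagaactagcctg
Ccr1: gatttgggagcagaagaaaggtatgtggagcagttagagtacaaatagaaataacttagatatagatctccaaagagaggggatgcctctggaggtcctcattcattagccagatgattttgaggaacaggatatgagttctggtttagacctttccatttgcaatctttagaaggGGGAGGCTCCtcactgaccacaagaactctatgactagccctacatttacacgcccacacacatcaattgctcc
Il1b: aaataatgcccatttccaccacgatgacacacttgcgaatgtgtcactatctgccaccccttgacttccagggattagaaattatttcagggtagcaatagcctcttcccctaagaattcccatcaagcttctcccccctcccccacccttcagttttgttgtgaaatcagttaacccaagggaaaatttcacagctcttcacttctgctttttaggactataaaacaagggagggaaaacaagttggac
Tnfrsf1a: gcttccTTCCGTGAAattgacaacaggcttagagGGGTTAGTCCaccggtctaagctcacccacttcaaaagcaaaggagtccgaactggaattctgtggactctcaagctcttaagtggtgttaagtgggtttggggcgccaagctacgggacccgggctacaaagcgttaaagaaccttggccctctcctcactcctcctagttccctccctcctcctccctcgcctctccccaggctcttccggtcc

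The motifs searched on both strands were GAGGAAGT (PU.1), TTGCNNAA (C/EBP), GGG and CC with 5 bases of any kind between them (NF-kB) and TTCNNNGAA (STAT). Ccr1 held an NF-kB match at -74 to -65 from the start site, and Tnfrsf1a an NF-kB match at -216 to -207 and a STAT match at -244 to -236, which reads on both strands. Ccl6 and Il1b held no match in these windows. Over all 32851 RefSeq windows of this length, 2.44% held the PU.1, 9.56% the C/EBP, 45.8% the NF-kB and 7.02% the STAT motif. Counted by gene, with a match at any of its start sites, 3, 9, 44 and 12 of the 74 members with a window held them in the same order (4.05%, 12.2%, 59.5% and 16.2%), against 2.94%, 8.72%, 68.8% and 7.06% of the 7338 genes of the table whose symbols matched. A match says only that the letters are there.

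By expression, 19 of the 95 members were at least 2-fold higher in granulocytes than in GMP, against 13% of all genes, and 5 were lower, against 18.3%. In such bulk values fewer cells of a type and less RNA per cell cannot be told apart. By role the higher ones were 6 of 19 interleukins, 5 of 24 interleukin receptor chains, 1 of 16 chemokines, 2 of 10 chemokine receptors, 3 of 7 TNF ligands and 2 of 15 TNF receptors, and the lower ones were 3 interleukin receptor chains, the chemokine Ccl9 and the interferon receptor chain Ifngr1.

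Il16, a chemoattractant for CD4-bearing cells, had an expression value of 354 in LSK, 357 in preGM, 229 in GMP and 3021 in granulocytes. The lone enhancer assigned to it, at chr7:90865627-90865787, was low in granulocytes, with H3K27ac of 1.12, 1.23, 0.490 and 0.569 and H3K4me1 of 3.18, 3.67, 2.31 and 0.529 in the same order. Il17ra and both chains of the interleukin-18 receptor were high in granulocytes by expression and within 2-fold in H3K27ac. Il17ra, the common chain of the interleukin-17 receptors, had 3442 in granulocytes and 311 in GMP (3.43), while its H3K27ac over 17 enhancers was 1.99 and 1.27 (0.44). The other interleukin-17 receptor chains in the table did not share this: Il17rb had 21.0 in granulocytes and 107 in GMP (-1.35), Il17re 64.5 and 56.4 (0.21) and Il17rc 33.8 and 25.5 (0.28). Of the interleukin-18 receptor chains, Il18rap had 1159 in granulocytes and 131 in GMP (2.96) and Il18r1 359 and 32.0 (2.73), with H3K27ac ratios of 0.43 for both. Their cytokine, Il18, had 72.1 in granulocytes and 75.5 in GMP, after 249 in LSK and 292 in preGM. Tnfsf14, the ligand LIGHT, had 493 and 32.3 (3.15), while its receptor Tnfrsf14 stayed between 23.8 and 28.3 at all stages although its H3K27ac was 3.90 in granulocytes and 1.84 in GMP.

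**Figure D3:**
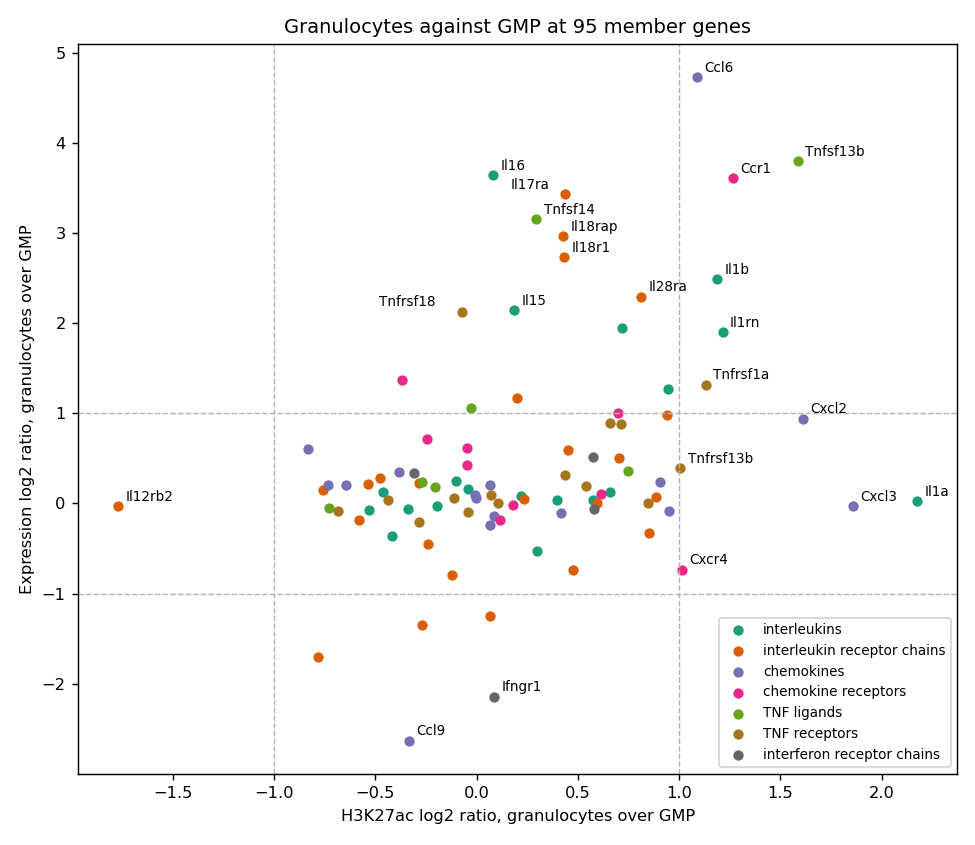
Log2 ratio of granulocytes over GMP for H3K27ac (x axis) and expression (y axis) at the 95 member genes, coloured by role and relative to the median of all genes; dashed lines mark 2-fold. Ccl6, Tnfsf13b, Ccr1, Il1b, Il1rn and Tnfrsf1a are high on both axes, Il16 and Il17ra on the y axis, and Il1a and Cxcl3 on the x axis.

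Of the 5 members with a lower expression value in granulocytes than in GMP, 4 were receptor chains. Il6st, the gp130 chain shared by interleukin-6 type cytokines, had an expression value of 36.2 in granulocytes and 199 in GMP (-1.71) and H3K27ac of 0.478 and 1.31. Ifngr1, the chain that binds interferon gamma, had 176 and 934 (-2.15), with H3K27ac of 2.28 and 2.09. Ccl9, a chemokine of mouse myeloid cells, had 1262 in LSK, 5763 in preGM, 2225 in GMP and 314 in granulocytes, while its H3K27ac stayed between 0.950 and 1.66. Il12rb2, a chain of the interleukin-12 receptor, differed in the mark alone: H3K27ac at its lone enhancer was 0.902 in granulocytes and 4.72 in GMP (-1.77), and its expression value was 16.0 and 19.8.

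Over the whole path, granulocytes over LSK, H3K27ac was higher at 7 members (background 9.4%) and lower at 5 (6.92%). Without subtracting the all-gene median of 0.51 the split was 25 higher and none lower, so this direction depends on the scaling. Tnfrsf1a had the largest ratio (2.01), followed by Il18bp, which neutralises interleukin-18, with 3.61 in granulocytes and 0.441 in LSK (1.41). The 5 lower genes were Il17re, Il6st, Il12rb2, Il1r1 and Il16. Il1r1, the signalling receptor of interleukin-1, had H3K27ac of 1.08, 1.07, 0.750 and 0.538 and expression values of 603, 245, 65.6 and 35.9 in LSK, preGM, GMP and granulocytes, with the lowest value of both measures in granulocytes. By expression 17 members were higher in granulocytes than in LSK (14%) and 11 lower (14.1%). Il17re, a chain of the interleukin-17 receptor family, had expression values of 656, 308, 56.4 and 64.5 and H3K27ac of 1.81, 1.51, 1.28 and 0.676.

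For H3K4me1 the lower members were about as frequent as among all genes. Relative to the all-gene median no member was higher in granulocytes than in GMP (0.872% of all genes were) and 10 were lower (8.05%), and against LSK 2 were higher (2.71%) and 11 lower (11.5%). Without that subtraction the splits were 4 higher and 4 lower against GMP, and 15 and 6 against LSK. The lowest ratio against LSK was that of Il2rb, a chain of the interleukin-2 receptor, with 0.467 in granulocytes and 4.66 in LSK (-1.89). Tnfsf4, a ligand that costimulates T cells, had 0.718 in granulocytes and 4.30 in LSK (-1.67). Tnfrsf13c, the BAFF receptor of B cells, had 1.89 in granulocytes and 6.79 in LSK (-1.63), and Ccr7, which guides lymphocytes and dendritic cells to lymph nodes, 1.02 and 4.62 (-1.58) with all 10 enhancers at least 2-fold lower. The expression value of Ccr7 was 69.7 in granulocytes and 18.7 in LSK, on the other side. The 2 higher ones were Il23a, a subunit of interleukin-23, with 7.68 and 0.899 (1.28), and Il1rn with 5.66 and 0.435 (1.20).

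Few members differed at the earlier steps. H3K27ac in preGM over LSK passed 2-fold at none of the 95 (background 0.545% in either direction), and in GMP over preGM at 2 higher (1.07%) and 1 lower (1.69%). The 2 were Il15ra, which presents interleukin-15, with 9.77 in GMP and 2.78 in preGM (1.17), and Il1rap, the accessory chain of the interleukin-1 receptor, with 6.27 and 1.70 (1.12), and each rests on a lone enhancer. Beneath these counts 72 of the 95 lay under the all-gene median in GMP over preGM, with a members' median of -0.22. They included all 10 chemokine receptors and all 7 TNF ligands. Of the 4 interferon receptor chains 3 lay over the all-gene median, while Il28ra, counted with the interleukin receptor chains, lay under it (-0.077). Lying under it is not by itself a loss of the mark. The subtracted median was 0.42, and the pseudocount shrinks the ratios of genes with low signal before that subtraction. The members' median H3K27ac was 1.08 in GMP and 0.938 in preGM. H3K4me1 passed 2-fold at no member in preGM over LSK (0.0099% of all genes) or in GMP over preGM (0.0594%).

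PU.1 passed 2-fold at few members between stages. In preGM over LSK it was at least 2-fold higher at 2 members (0.495%) and lower at none (0.208%), and 61 of the 95 lay over the all-gene median. Without subtracting that median, 0.37, it was higher at 10 members and lower at none. The 2 were Il31, a cytokine of T cells, with 8.71 in preGM and 2.79 in LSK (1.09), and Il18, with 9.51 and 3.27 (1.02), each with 1 enhancer. At the level of single enhancers 24 of 496 had at least 2-fold more PU.1 in preGM (background 2.2%) and 2 had less (0.6%). In GMP over preGM none passed (0.644% in either direction). The most extreme were Il23a with 5.66 in GMP and 3.28 in preGM (0.79) and Il16 with 0.833 and 2.41 (-0.97). At Il23a all the enhancer measures were higher in GMP than in preGM, with H3K27ac of 2.14 and 0.679 and H3K4me1 of 4.46 and 1.41, while its expression value was 14.6 and 11.9.

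By expression, the lower members in preGM over LSK were mostly chemokines. In preGM over LSK 2 members were higher (1.69% of all genes) and 5 lower (0.941%). Ccl3 had 39.5 in preGM and 1482 in LSK (-4.47), Cxcl2 had 17.5 and 233 (-2.50) and Ccl4 had 76.9 and 333 (-1.79). H3K27ac at Ccl3 was 1.54 in preGM and 1.44 in LSK, and at Cxcl2 1.12 and 0.720. In the signalling lists, 3 of 37 NF-kB and TNF pathway genes, 1 of 20 JAK, STAT and SOCS genes and 2 of 16 chemokine receptor signalling genes were lower in preGM than in LSK, and none was higher. Of these, chosen after their values were seen, Nfkbiz had 75.5 in preGM and 665 in LSK, Tnfaip3 115 and 749, Socs3 237 and 1018, and Rgs1 105 and 1775. The 2 higher in preGM were Ccl9 (2.14) and Il1rl1, the receptor of interleukin-33, with 124 in preGM and 24.97 in LSK (1.45). In GMP over preGM Ifngr1 alone was higher (934 against 434, 1.04; background 2.94%), and 6 were lower (3.38%), led by Il17re (-1.99), Il18 (-1.63) and Il1r1 (-1.54).

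The intracellular partners were described from gene lists, beside 13% of all genes with a higher and 18.3% with a lower expression value in granulocytes than in GMP. Of 22 JAK, STAT and SOCS genes 20 were in the table, and 11 had a higher and 2 a lower expression value in granulocytes than in GMP, with a median ratio of 1.20. Stat3, the factor that gp130 activates, had 696 in granulocytes and 180 in GMP, and Socs3, its feedback inhibitor, 409 and 23.5. Of 23 genes of chemokine receptor signalling 16 were in the table and 10 were higher and none lower (median 1.26), for example Arrb2, a beta-arrestin that switches receptors off, with 1822 and 124. Of 10 interleukin-1 and Toll adaptor genes 6 were in the table and 3 were higher and none lower (1.02), among them Myd88 with 1279 and 359. Of 41 NF-kB and TNF pathway genes 37 were in the table, and 7 were higher and 1 lower (0.39), with Rela, a subunit of NF-kB, at 812 and 207. Chuk, an IkB kinase, was the lower one, with 106 and 443.

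Cebpa KO preGM differed from wild type preGM at few members. H3K27ac passed 2-fold at none of the 95 (0.258% of all genes in either direction) and H3K4me1 at none (0.0099%). For H3K27ac 61 of the 95 lay under the all-gene median and 34 over it, with a members' median of -0.087. Under it were 9 of 10 chemokine receptors and 13 of 16 chemokines, some of which are neighbours in the genome. As in GMP over preGM, lying under the all-gene median, here 0.073, is not by itself a loss of the mark. The members' median H3K27ac was 0.914 in KO and 0.938 in wild type preGM. The lowest ratio was that of the lone Cxcl2 enhancer, with 0.305 in KO and 1.12 in wild type (-0.93), where all genes had a median of 1.21. The highest was that of Tnfrsf11a, with 1.79 in KO and 0.645 in wild type (0.82). PU.1 was lower at 2 (0.386%) and higher at none (0.396%), relative to a median of -0.40 over all genes. Without that subtraction 5 were lower and none higher. Il23a had PU.1 of 0.553 in KO and 3.28 in wild type preGM (-1.35), and Ccl2, the monocyte-attracting ligand of Ccr2, had 1.45 and 5.16 (-1.10). Il23a rests on 1 enhancer, and at Ccl2 1 of 2 enhancers was at least 2-fold lower. The Ccl2 enhancer at chr11:81820690-81820797 had CEBPA signal of 6.87 in wild type preGM, the second highest of the members' enhancers, and its PU.1 was 2.07 in KO and 9.35 in wild type.

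**Figure D4:**
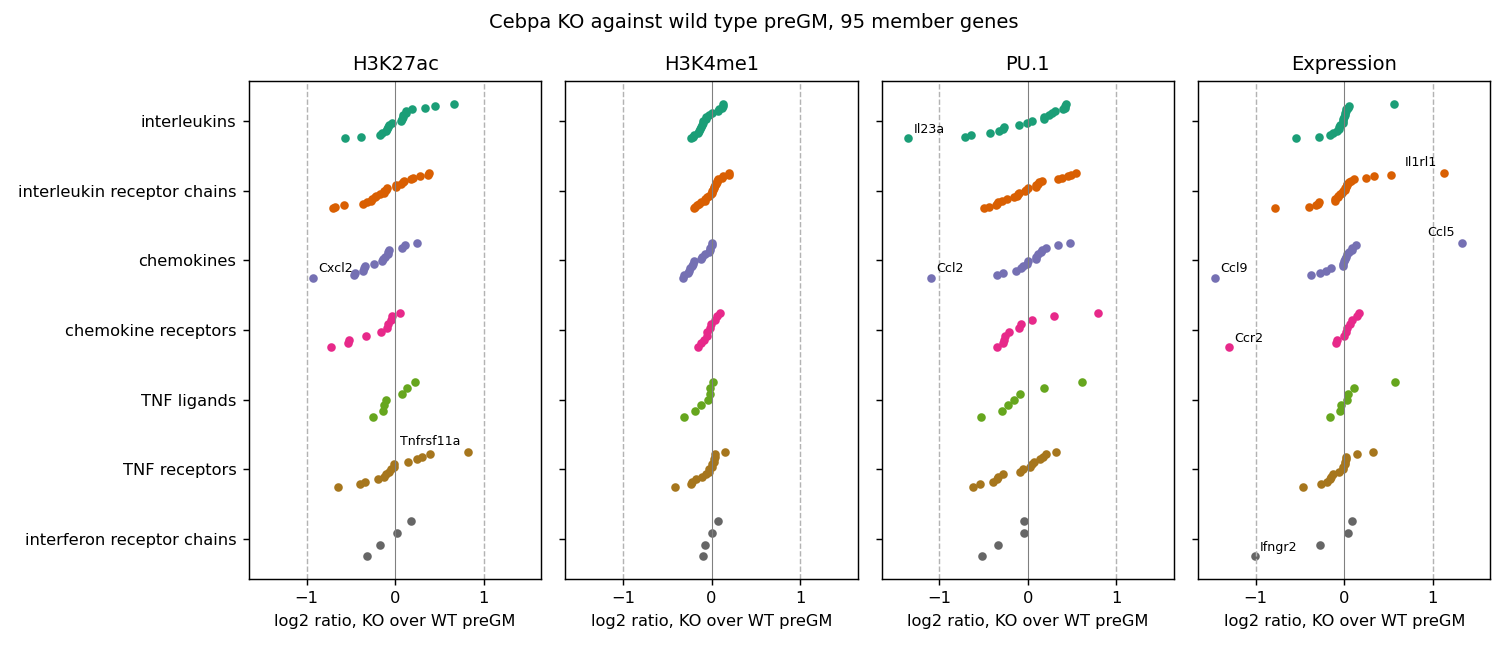
Log2 ratio of KO over wild type preGM at the 95 member genes by role, for H3K27ac, H3K4me1, PU.1 and expression, each relative to the median of all genes; dashed lines mark 2-fold. Only Il23a and Ccl2 lie beyond 2-fold for PU.1, and Ccl9, Ccr2, Ifngr2, Il1rl1 and Ccl5 for expression.

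By expression in the genotype pair, 2 members were higher in KO than in wild type preGM (0.188% of all genes) and 3 lower (0.307%). Ccl5, a chemokine that attracts T cells and eosinophils, had 1127 in KO and 405 in wild type (1.33), and Il1rl1 had 758 and 310 (1.12). Ccl9 had 82.0 in KO and 347 in wild type (-1.46), Ccr2, which brings monocytes out of the marrow, 89.8 and 323 (-1.30), and Ifngr2, the second chain of the interferon gamma receptor, 84.4 and 241 (-1.01). With a pseudocount 4 times larger only 1 of the 5 passed. The 4 monocyte markers in the table (Csf1r, Ly86, Klf4, F13a1) summed to 186 in KO and 1225 in wild type, with Ly86 at 51.7 and 768, F13a1 at 38.7 and 258, Csf1r at 38.8 and 140 and Klf4 at 57.0 and 57.8. Their part in the lower Ccl9 and Ccr2 values was not tested.

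Ifngr2 was low in KO by expression and held much CEBPA. Its mean CEBPA signal of 1.89 in wild type preGM was above that of 97.7% of all genes, and 2 of its 16 enhancers, at chr16:91522444-91522587 and chr16:91523333-91523468, had 6.76 and 6.59. PU.1 over its enhancers was 2.47 in KO and 5.16 in wild type, and at 3 of them PU.1 was at least 2-fold lower and at 1 higher. H3K27ac was 0.649 in KO and 0.897 in wild type, within 2-fold. At Ccr2 CEBPA was 0.360, above that of 12.6% of all genes, and its PU.1 was 1.62 in KO and 2.93 in wild type.

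Among single enhancers, 16 of the 496 had at least 2-fold less PU.1 in KO than in wild type preGM, which is 3.23% against a background of 1.99%, and 3 had more, 0.605% against 0.725%. The 16 belonged to 10 genes, among them Il17ra with 3 of its 17 enhancers, Cxcr4 with 2 of 26 and Tnfrsf14 with 2 of 11. In the authors' class of enhancers bound by both PU.1 and CEBPA the members had 65 enhancers, 13.1% of theirs against 9.21% of all, and 12 of the 16 fell in it. The lower enhancers were frequent in this class in general: 11.4% of all its 4054 enhancers had at least 2-fold less PU.1 in KO. The median ratio in this class was -0.61 at the members and -0.52 over all its enhancers, and in the class with PU.1 only -0.31 and -0.37. How the classes were called is not stated in the labels or the table, and these data may have served for it, so the medians are a description.

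**Figure D5:**
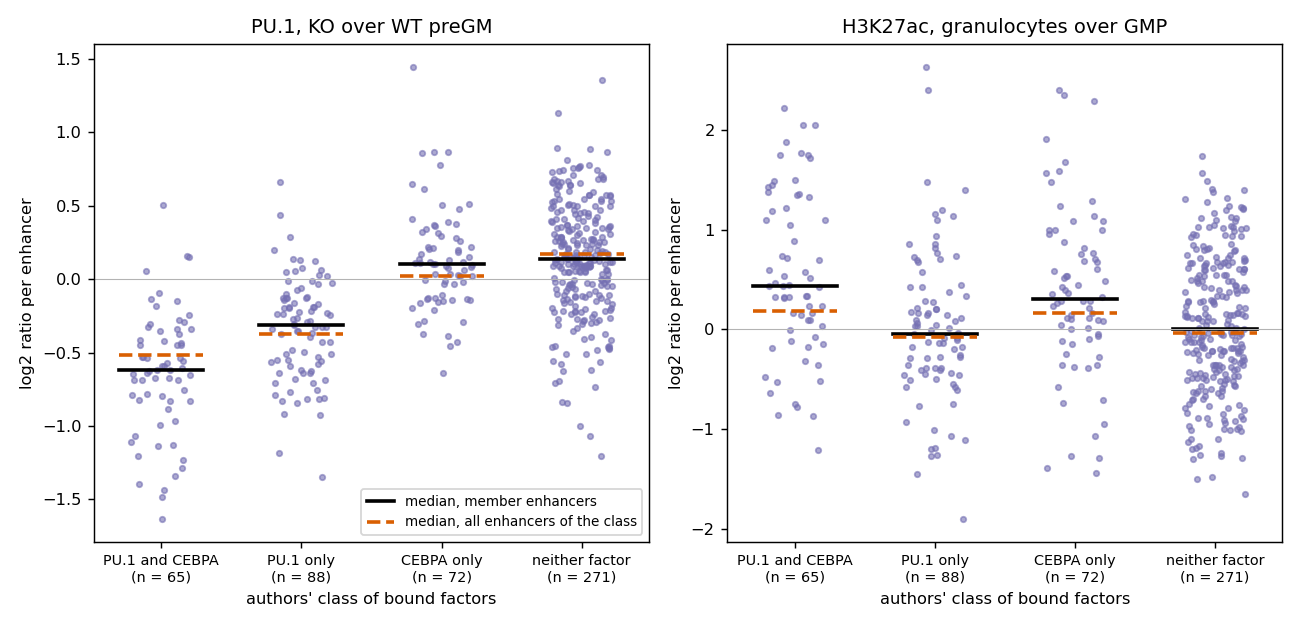
Log2 ratio at single member enhancers, by the authors' class of bound factors, for PU.1 in KO over wild type preGM (left) and H3K27ac in granulocytes over GMP (right). Points are the 496 member enhancers, black lines their medians and dashed lines the medians of all enhancers of the class; at the 65 enhancers with both factors the left medians are -0.61 and -0.52.

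Granulocyte H3K27ac was read by the same classes. In granulocytes over GMP 71 of the 496 single enhancers were at least 2-fold higher (14.3%, background 10.8%) and 33 lower (6.65%, background 8.24%), and of the 65 with both factors 21 were higher and 1 lower, with a median of 0.44 against 0.19 over all enhancers of the class, of which 17.0% were higher and 8.14% lower. Of the 271 with neither factor 28 were higher and 18 lower, against 9.42% and 7.43% over that class. By the authors' stage labels, 36.5% of the members' enhancers were labelled preGM and GMP only (29.1% of all) and 16.1% granulocytes only (21.2%). How these labels were called is not stated, and a label without granulocytes does not mean that the mark was absent there. The member enhancers with the most granulocyte H3K27ac, the Tnfrsf1a pair with 30.0 and 28.7, were labelled preGM and GMP only.

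Some members are neighbours in the genome. The members formed 15 loci in which enhancers of 2 or more of them lie within 300000 bp of each other, with 43 genes and 263 enhancers. In granulocytes over GMP, 4 of the loci held enhancers with at least 2-fold more H3K27ac and others with less, 7 held only higher and 2 only lower ones, and 2 held none. In the chemokine cluster at chr11:83347211-83477417, which holds Ccl3, Ccl4, Ccl5, Ccl6 and Ccl9, 6 of 35 enhancers had at least 2-fold more H3K27ac in granulocytes than in GMP and 9 had less. The higher ones lay at Ccl6 (3 of 5), Ccl3 (2 of 6) and Ccl9 (1 of 10) and the lower ones mainly at Ccl5 (5 of 8) and Ccl9 (3 of 10). In the interferon receptor cluster at chr16:91347885-91550065, with Ifnar1, Ifnar2, Ifngr2 and Il10rb, 6 of 50 were higher and 5 lower, with 4 of the higher at Ifngr2 and 3 of the lower at Ifnar1. In the cluster of Ccr1, Ccr1l1, Ccr2 and Ccr3 at chr9:123848996-124017403, 4 of 18 were higher, all at Ccr1, and none lower.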

How the data were processed

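The deposited table of enhancers (build mm9) gives, per the file headers, 1 signal value for each enhancer and group for ChIP-seq and 1 expression value per gene and group; the labels and headers used here do not state how the authors pooled or scaled them. Tools listed in the submitters' processing notes are STAR, featureCounts and DESeq2 (RNA-seq samples) and MACS2, bedtools and Bowtie2 (ChIP-seq samples). Of the value columns 21 were used and 11, with no listed sample or no described quantity, were not. The unit of the expression values, matched to the RNA groups by column name, is a score on an unstated scale in the deposited table. Positions are as deposited, with an unstated counting convention, and no mm9 annotation was used, so exon or intron is not given.

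Values were averaged per gene over its enhancers (python 3.11.15, numpy 2.4.6, pandas 2.3.3). Log2 ratios used a pseudocount set at the 25th percentile of an assay's values and rounded to 1 significant digit, and the median over all 10096 genes was subtracted. Genes at least 2-fold apart were counted. There is no replicate value, and so no error or test. The steps were run on simulated data with planted differences much larger than 2-fold, so calls near 2-fold were not covered. Of the member symbols 94 matched RefSeq and 1 a synonym (Il28ra). Near-identical neighbours such as Tnfrsf22 and Tnfrsf23 may share reads.

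Named genes were, per comparison, up to 8 in each direction past 2-fold with at least the all-gene median in the higher group (3 most extreme where fewer passed), and the 2 members of each role with the most H3K27ac; such genes were followed through all measures. Tnfrsf13b, Il17rb, Il6, Il10, Il13, Ccr3, the genes named from the signalling lists and those named for single enhancers or loci were chosen after their values were seen. The members and lists were chosen with earlier results of these data known. Alternatives were other pseudocounts, no median subtraction, a filter on low values, and the strongest or the median enhancer of a gene.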

Additional observations from a re-analysis of the deposited data

How the results depend on the processing

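No paired analysis was possible because the table holds 1 value per group and no replicate columns, and for the same reason leaving out single replicates was not run. Counts are of members at least 2-fold apart in either direction, of 95, given for the alternative and then as reported. With a pseudocount 4 times smaller, H3K27ac gave 12 against 3 in GMP over preGM, 26 against 12 in granulocytes over GMP, 36 against 12 in granulocytes over LSK and 5 against 0 in KO over wild type. In the same setting H3K4me1 gave 3 against 0 in GMP over preGM, 18 against 10 in granulocytes over GMP and 28 against 13 in granulocytes over LSK. PU.1 gave 4 against 2 in preGM over LSK and 1 against 0 in GMP over preGM, and expression 11 against 7 in GMP over preGM. With a pseudocount 4 times larger, H3K27ac gave 0, 3 and 2 in GMP over preGM, granulocytes over GMP and granulocytes over LSK, H3K4me1 gave 0 in both granulocyte comparisons, PU.1 gave 0 in preGM over LSK and 0 in KO over wild type, and expression gave 3 in GMP over preGM, 17 against 28 in granulocytes over LSK and 1 against 5 in KO over wild type.

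Without subtracting the all-gene median, H3K27ac gave 25 (25 higher, 0 lower) and H3K4me1 21 (15 higher, 6 lower) in granulocytes over LSK, and PU.1 gave 10 in preGM over LSK, 1 in GMP over preGM and 5 in KO over wild type. In that setting H3K27ac in GMP over preGM gave 4 higher and 0 lower, and H3K4me1 in granulocytes over GMP 4 higher and 4 lower. With the higher group required to reach the assay's median gene value, H3K27ac gave 0 in GMP over preGM, H3K4me1 5 in granulocytes over GMP, and PU.1 0 in preGM over LSK and 1 in KO over wild type. The subtracted median was there taken over the genes kept. With the same genes but the median of all genes subtracted, chosen after seeing the data, these counts were 2, 5, 2 and 2. With the strongest enhancer of each gene, H3K27ac gave 1, 14, 27 and 29 in preGM over LSK, GMP over preGM, granulocytes over GMP and granulocytes over LSK, and 1 in KO over wild type, and PU.1 gave 4 in GMP over preGM and 5 in KO over wild type. With genes of 2 or more enhancers, chosen after seeing the data, H3K27ac gave 0 in GMP over preGM and 7 in granulocytes over LSK, H3K4me1 4 and 6 in granulocytes over GMP and over LSK, and PU.1 0 in preGM over LSK and 1 in KO over wild type; fewer genes entered this setting. The median over enhancers moved no count by over 1.5 times. No gene named by the rule and past 2-fold changed sign under an alternative, but without the subtraction the balance of higher and lower members changed as given for H3K27ac and H3K4me1 (as reported, 7 and 5 and 2 and 11 in granulocytes over LSK). The cause of the other shifts was not tested, and depth is unknown.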
